A study of Mus musculus with 904 samples.

Results

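The genes described here encode 9 voltage-gated potassium channel subunits, taken by name from the 32285 genes of the count table. They are 3 Kv3 alpha subunits (Kcnc1, Kcnc2 and Kcnc4), 4 Kv1 alpha subunits (Kcna1, Kcna2, Kcna3 and Kcna4) and 2 beta subunits that bind Kv1 channels (Kcnab1 and Kcnab3). They were read in 904 single nuclei from the brains of C57Bl/6J mice that had received PHP.eB enhancer AAVs in young adulthood at 5e11 vg per mouse. All of the vectors carried the DLX2.0 enhancer, and the nuclei were sorted for the fluorescent histone fusion 3 to 4 weeks later. RNA of each nucleus was amplified with SMART-Seq v4 and sequenced, and the 16 constructs named in the sample titles differed in the fusion protein (SYFP2-H2B, SYFP2-P2A-3XFLAG-H2B, SYFP2-10aa-H2Bmod or dTomato-H2B) and in an RNA element placed before or after it. Uninjected nuclei are not among the groups. No label names an animal, so the nuclei of 1 construct were taken as 1 sample. The p-values therefore rest on the spread between constructs, part of which may be technical.

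Kv3 channels open only at strongly depolarised voltages and close quickly, which lets a neuron repolarise fast and fire again at high rates. Kv3.1 and Kv3.2, the products of Kcnc1 and Kcnc2, are known from fast-spiking interneurons of the cortex, whereas Kv3.4, the product of Kcnc4, inactivates. Kv1 channels open near threshold and sit mostly in axons, where the products of Kcna1 and Kcna2 limit excitability near the initial segment and the nodes. The product of Kcna4 gives a transient current that inactivates, that of Kcna3 is best known from lymphocytes, and the beta subunits encoded by Kcnab1 and Kcnab3 bind the inner face of Kv1 channels and, in the case of Kcnab1, can confer fast inactivation.

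On mm10, with GENCODE M21, the genes lie on 6 chromosomes. Kcnc1 lies at chr7:46396497-46438704 on the plus strand, Kcnc2 at chr10:112271121-112467024 on the plus strand and Kcnc4 at chr3:107438303-107459552 on the minus strand. Kcna3 (chr3:107036169-107038070) and Kcna2 (chr3:107101146-107115005), both on the plus strand, are neighbours of Kcnc4 on chromosome 3. Kcna1 lies at chr6:126640397-126646384 on the minus strand, Kcna4 at chr2:107290639-107298502, Kcnab1 at chr3:65109384-65378223 and Kcnab3 at chr11:69326258-69333042, all 3 of these last on the plus strand.

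The promoters of the genes on which the class differences turn are shown because the levels of Kcnc1 and Kcnc2 were highest in the Pvalb class and that of Kcna4 in the striatal class. RefSeq windows on GRCm38.p6, from 250 bases before to 50 bases after a transcript start, were found for 7 of the 9 genes. The window of Kcnc1 is chr7:46396218-46396517, that of Kcnc2 chr10:112270871-112271170 and that of Kcna4 chr2:107290339-107290638, all on the plus strand. RefSeq gives Kcnc2 4 windows, and the one shown starts from the GENCODE start. Capitals mark the GC box, GGGCGG or its reverse complement CCGCCC.
Kcnc1: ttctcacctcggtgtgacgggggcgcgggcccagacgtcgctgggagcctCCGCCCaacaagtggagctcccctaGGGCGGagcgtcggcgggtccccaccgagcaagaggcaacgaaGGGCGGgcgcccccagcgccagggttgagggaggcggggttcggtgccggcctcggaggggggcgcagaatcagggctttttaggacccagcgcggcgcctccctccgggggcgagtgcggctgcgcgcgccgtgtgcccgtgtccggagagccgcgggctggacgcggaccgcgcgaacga
Kcnc2: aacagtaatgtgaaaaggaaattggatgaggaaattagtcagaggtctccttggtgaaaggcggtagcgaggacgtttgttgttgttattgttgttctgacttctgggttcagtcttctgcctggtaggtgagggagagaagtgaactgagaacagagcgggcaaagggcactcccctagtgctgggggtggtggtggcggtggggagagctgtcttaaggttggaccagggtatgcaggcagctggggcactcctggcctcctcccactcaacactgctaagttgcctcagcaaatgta
Kcna4: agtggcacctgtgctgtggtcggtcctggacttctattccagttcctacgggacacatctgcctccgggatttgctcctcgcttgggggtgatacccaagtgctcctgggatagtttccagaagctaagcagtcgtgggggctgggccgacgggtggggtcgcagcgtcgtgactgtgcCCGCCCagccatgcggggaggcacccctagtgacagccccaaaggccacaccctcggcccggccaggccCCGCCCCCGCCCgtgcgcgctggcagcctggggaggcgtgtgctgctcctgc
The GC box occurred 3 times in the Kcnc1 window, 3 times in the Kcna4 window and 0 times in the Kcnc2 window shown, while the Kcnc2 window at chr10:112269767-112270066 held it 1 time. The box was held by 35.7% of all 32851 promoter windows. Bases G and C made up 74.7% of the Kcnc1 window, 67.7% of the Kcna4 window and 52.7% of the Kcnc2 window, against a median of 52.7% over all windows. Neither TATAAA (reverse TTTATA, in 13.6% of windows) nor TGACGT (reverse ACGTCA, in 7.51%) was found in the 3 windows shown. These matches describe letters only.

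Nuclei with at least 1000 genes and 10000 reads were kept, which left 835. They had 30023 to 719419 reads in genes, with a median of 260274. Classes were set by CPM, the reads of a gene divided by all reads of its library and scaled to a total of 1000000: Pvalb (at least 20 CPM of Pvalb, under 100 of Sst, 92 nuclei), Sst (at least 100 CPM, 114 nuclei), striatal projection (at least 20 CPM of Rgs9, under 20 of Slc17a7, 214 nuclei), excitatory (at least 50 CPM of Slc17a7, 134 nuclei), Aqp4 (at least 20 CPM, 35 nuclei) and Mog (at least 20 CPM, 37 nuclei). A further 92 nuclei met more than 1 of these rules, 38 of them those of Sst and striatal projection alone, and 117 met none. All 9 markers of striatal projection neurons were highest in the striatal class although the labels give visual cortex as the tissue of every nucleus, while the design text names motor cortex and striatum as well. All 6 astrocyte markers were highest in the Aqp4 class, all 5 oligodendrocyte markers in the Mog class, 4 of 6 markers each in the Pvalb and Sst classes and 6 of 7 in the excitatory class. The counts of the Pvalb, Sst and excitatory classes include Pvalb, Sst and Slc17a7, which set these classes and so add no check. The Pvalb and Sst lists also share Gad1, Gad2 and Lhx6. Of the Pvalb list, Lhx6 was highest in Sst nuclei (245 against 75.3 CPM) and Tac1 in striatal nuclei (929 against 404 CPM). Titles and treatment labels disagree on which vector a nucleus received, since each title covers 4 or 5 of the 16 treatment labels. Median depth was lowest in the excitatory class, at 233164 reads, and highest in the Mog class, at 325977 reads. The median number of genes per nucleus went another way. It was 1144 in Mog, 1622 in Aqp4, 2560 in striatal, 3003 in Sst, 3263 in Pvalb and 3481.5 in excitatory nuclei. The part of this difference in the shares of nuclei with a read was not tested.

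Nuclei of 1 class and 1 construct were summed where there were at least 5, which gave 9 libraries of the Pvalb class, 12 of Sst, 12 striatal, 13 excitatory, 2 Aqp4 and 3 Mog. Levels below are CPM of these libraries, and tests are edgeR quasi-likelihood tests with the construct as a block, adjusted by Benjamini-Hochberg over the 15254 genes tested in each contrast, with a threshold of 0.05. Shares of all genes that passed are over the 15249 of these that did not set the classes. A fold change is fitted within constructs, so it departs from the ratio of class means where many libraries hold no read. The median log2 fold change over all genes was -0.37 for Pvalb over excitatory, -0.38 for Sst over excitatory, -0.21 for striatal over excitatory, -0.14 for Pvalb over striatal and -0.13 for Sst over striatal. In these summed nuclei, less RNA of a gene in every nucleus and fewer nuclei that hold it cannot be told apart. The shares of nuclei with a read, given beside the levels, do not settle this. A share also falls when each nucleus holds less RNA and more nuclei miss a read.

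Kcnc1 had the highest CPM of the 9 genes in the Pvalb class, was intermediate in Sst nuclei and low in striatal and excitatory nuclei. Its level was 753 to 1399 CPM in the 9 Pvalb libraries (median 1228), 76.7 to 692 CPM in the 12 Sst libraries (median 386), 20.8 to 119 CPM in the 12 striatal libraries (median 52.3) and 34.1 to 191 CPM in the 13 excitatory libraries (median 62.8). No Pvalb library overlapped with any library of the other 3 neuronal classes, while the striatal and excitatory ranges covered each other for the most part. Means were 1099 ± 254 CPM in Pvalb, 392.4 ± 191 in Sst, 57.3 ± 30.3 in striatal and 75.8 ± 44.2 in excitatory libraries (SD, n = 9, 12, 12 and 13).

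Kcnc1 was higher in Pvalb than in striatal nuclei (log2 fold change 4.15 ± 0.43, SE, adjusted p = 1.29e-09) and higher in Pvalb than in excitatory nuclei (3.69 ± 0.42, adjusted p = 3.14e-08). It was also higher in Sst than in striatal nuclei (2.67 ± 0.38, adjusted p = 2.28e-06) and than in excitatory nuclei (2.21 ± 0.39, adjusted p = 0.000218). Ranges wholly above were found for 0.8% of all genes in Pvalb against striatal libraries and for 0.341% in Pvalb against excitatory libraries. The Sst over excitatory call did not pass when nuclei were grouped by treatment label (1.11, adjusted p = 0.402), and it passed in 25 of 28 settings. Striatal and excitatory nuclei, neighbours in the order of levels, were not told apart (-0.46 ± 0.38, adjusted p = 0.711).

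Between the interneuron classes, Kcnc1 was above Sst in the Pvalb library of 8 of 8 constructs that hold both. The fold change of 1.48 ± 0.39 on the log2 scale had an adjusted p of 0.0677 and so missed the threshold. A range wholly above that of Sst was found for 0.0787% of the genes tested. The difference passed in 8 of the 28 settings run, among them DESeq2 (adjusted p = 0.000140), the fit without the construct block (0.0111) and the fit of the neuronal classes alone (0.0161). Leaving out 3xU7snRNAOPT-SYFP2-H2B-BC, SYFP2-H2B-3xU7snRNAOPT-BC or SYFP2-H2B-U7snRNAOPT-3'box-BC also brought it below the threshold, with adjusted p of 0.00746, 0.00940 and 0.0104. Each of these fits also lost the Mog class, then under 3 libraries, so the part of the construct cannot be told apart. They tested 12074, 12352 and 11993 genes, against 12148 with the neuronal classes alone. Over all settings the value lay between 1.01 and 2.03 and the adjusted p between 0.000140 and 1.

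A read of Kcnc1 was present in 97.8% of Pvalb nuclei (exact Clopper-Pearson 95% interval 92.4 to 99.7%), 73.7% of Sst nuclei (64.6 to 81.5%), 23.8% of striatal nuclei (18.3 to 30.1%) and 47.01% of excitatory nuclei (38.3 to 55.8%). In the glial classes, which should lack the channel, it was 11.4% of Aqp4 nuclei (3.20 to 26.7%) and 2.703% of Mog nuclei (0.0684 to 14.2%). Thinned to 30000 reads each, which left out no nucleus, the shares were 95.7% of Pvalb, 70.2% of Sst, 21.03% of striatal and 44.03% of excitatory nuclei. The excitatory share was thus above the striatal one although the levels of the classes were not told apart. Excitatory nuclei also held more genes in the median than striatal nuclei (3481.5 against 2560), and the part of this was not tested. Where a nucleus held reads, its median was 990 CPM in Pvalb, 331 in Sst, 201 in striatal and 125 in excitatory nuclei. These intervals cover the counting error of nuclei only, and they treat all nuclei of a class as independent. Spread between constructs, library pools and animals is left out, so the intervals may be too narrow. Apart from that, amplified reads without molecular identifiers are not independent molecules.

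**Figure D1:**
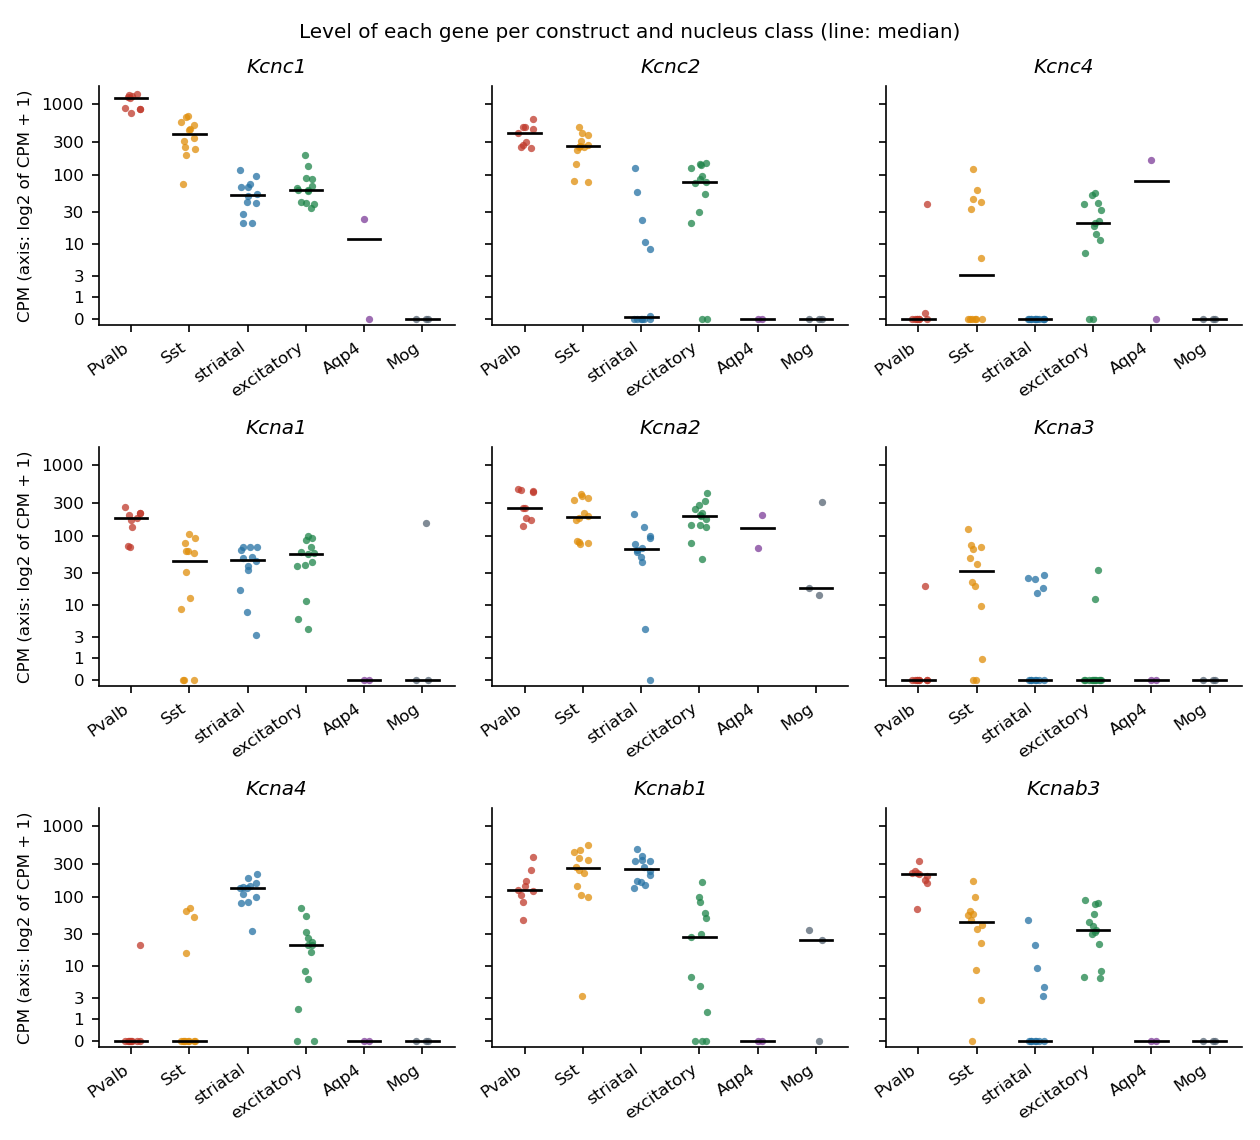
Level of each listed gene in CPM (vertical axis, log2 of CPM + 1, labelled in CPM) in every library of a class and construct (points), by class, with the median as a line. The 9 Pvalb libraries of Kcnc1 sit between 753 and 1399 CPM, above every other library, while Kcna4 is highest in the striatal libraries.

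Kcnc2, like Kcnc1, had its highest class means in the 2 interneuron classes, and it was nearly missing from striatal nuclei. It reached 244 to 624 CPM in Pvalb libraries (median 392.1), 80.9 to 475 CPM in Sst libraries (median 258), 0 to 127 CPM in striatal libraries (median 0.0445, with 6 of 12 at 0) and 0 to 149 CPM in excitatory libraries (median 80.4). The Pvalb range lay above the striatal and the excitatory range, and it overlapped with the Sst range. Kcnc2 was higher in Pvalb than in striatal nuclei (log2 fold change 6.75 ± 1.37, adjusted p = 0.000845) and in Sst than in striatal nuclei (5.82 ± 1.24, adjusted p = 0.00124).

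In striatal over excitatory nuclei Kcnc2 was lower (log2 fold change -4.58 ± 1.35, adjusted p = 0.0457), and it was lower in 7 of the 9 constructs with both classes. The call was lost when any 1 of 11 constructs was left out (adjusted p 0.0543 to 0.141): 3xsmOPT-SYFP2-H2B-BC, BORG-SYFP2-H2B-BC, dTomato-H2B, SYFP2-10aa-H2Bmod-BC, SYFP2-H2B-3xBORG-BC, SYFP2-H2B-3xsmOPT-BC, SYFP2-H2B-BORG-BC, SYFP2-H2B-U7snRNAOPT-3'box-BC, SYFP2-P2A-3XFLAG-H2B, U7snRNAOPT-3'box-SYFP2-H2B-BC or U7snRNAOPT-SYFP2-H2B-BC. Without the construct block the value was -1.95 (adjusted p = 0.129), and over 28 settings it passed in 14 (adjusted p 9.46e-07 to 1). Neither Pvalb over excitatory (2.17 ± 1.01, adjusted p = 0.307) nor Pvalb over Sst (0.94 ± 0.93, adjusted p = 0.933) passed.

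A Kcnc2 read was present in 81.5% of Pvalb nuclei (72.1 to 88.8%), 60.5% of Sst nuclei (50.9 to 69.6%), 3.74% of striatal nuclei (1.63 to 7.23%) and 37.3% of excitatory nuclei (29.1 to 46.1%). In Mog nuclei the share was 2.703% (0.0684 to 14.2%), an interval that holds the striatal share, and 0 of 35 Aqp4 nuclei had a read. Of the 8 striatal nuclei with a read, the highest alone held 44.9% of the CPM summed over the class's nuclei. Reads of both Kcnc1 and Kcnc2 were found in 74 of 92 Pvalb, 53 of 114 Sst, 3 of 214 striatal and 28 of 134 excitatory nuclei.

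Kcnc4, whose channel inactivates, had another order: it was read in Sst and excitatory nuclei and in no striatal nucleus. Its level was 0 to 39.2 CPM in Pvalb libraries (7 of 9 at 0), 0 to 123 CPM in Sst libraries (median 3.07, 6 of 12 at 0), 0 in every one of the 12 striatal libraries and 0 to 56.2 CPM in excitatory libraries (median 20.6). Of 214 striatal nuclei, 0 had a read, which allows a share of up to 1.40% by 3 counts of the total and 1.71% by the exact interval, against 2.17% of Pvalb nuclei (0.264 to 7.63%), 9.65% of Sst nuclei (4.92 to 16.6%) and 27.6% of excitatory nuclei (20.2 to 35.997%).

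Kcnc4 was higher in Sst than in striatal nuclei (adjusted p = 0.0134) and lower in striatal than in excitatory nuclei (adjusted p = 0.00201). Set against 3 counts over the whole striatal group, the ratios of reads were 443 for Sst and 515 for excitatory nuclei. They are not strict lower bounds, since the reads of a nucleus are not independent. The shares of nuclei with a read allow far smaller ratios. Sst was the higher class in 5 of 10 constructs, with both at 0 in the other 5, and striatal was the lower class against excitatory in 8 of 9 constructs. The glial share was 8.57% of Aqp4 nuclei (1.80 to 23.1%), which the Sst share of nuclei did not exceed beyond counting error. Sst over excitatory nuclei (log2 fold change -2.09 ± 1.74, adjusted p = 0.691) and Pvalb over excitatory nuclei (-6.80 ± 2.55, adjusted p = 0.169) did not pass. In the excitatory class the level was 37.5, 26.7 and 2.92 CPM in the library pools S40317, S40325 and S40327, so the pools differed as well.

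Kcna1 and Kcna2, the axonal Kv1 alpha subunits, were read in all 4 neuronal classes, and neither passed in any contrast between them. Kcna1 reached 70.02 to 256 CPM in Pvalb libraries (median 180), 0 to 107 CPM in Sst libraries (median 44.5), 3.22 to 71.3 CPM in striatal libraries (median 47.02) and 4.12 to 99.9 CPM in excitatory libraries (median 56.9). Pvalb libraries were highest on average, at 168 ± 63.8 CPM, against 43.2 ± 39.2 in Sst, 43.4 ± 24.2 in striatal and 51.6 ± 31.97 in excitatory libraries (SD), but the ranges overlapped. Pvalb over Sst gave 2.38 ± 1.07 on the log2 scale with an unadjusted p of 0.0298 and an adjusted p of 0.518, with Pvalb higher in 7 of 8 constructs. A read was present in 58.7% of Pvalb (47.9 to 68.9%), 18.4% of Sst (11.8 to 26.8%), 20.6% of striatal (15.4 to 26.6%) and 39.6% of excitatory nuclei (31.2 to 48.4%).

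Kcna2 had 141 to 467 CPM in Pvalb libraries (median 255), 77.02 to 392.2 CPM in Sst libraries (median 190), 0 to 204 CPM in striatal libraries (median 66.8) and 47.4 to 404 CPM in excitatory libraries (median 194). All 4 ranges overlapped. The contrasts were 1.48 ± 0.64 for Pvalb over striatal (log2, adjusted p = 0.201), 1.24 ± 0.56 for Sst over striatal (adjusted p = 0.215), -1.26 ± 0.58 for striatal over excitatory (adjusted p = 0.303) and 0.24 ± 0.58 for Pvalb over Sst (adjusted p = 1). DESeq2 called the first (1.60, adjusted p = 0.0255) and the second (1.33, adjusted p = 0.0353), which passed in 2 and 1 of 28 settings. Both Kcna1 and Kcna2 had a read in 46 of 92 Pvalb, 13 of 114 Sst, 16 of 214 striatal and 43 of 134 excitatory nuclei.

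**Figure D2:**
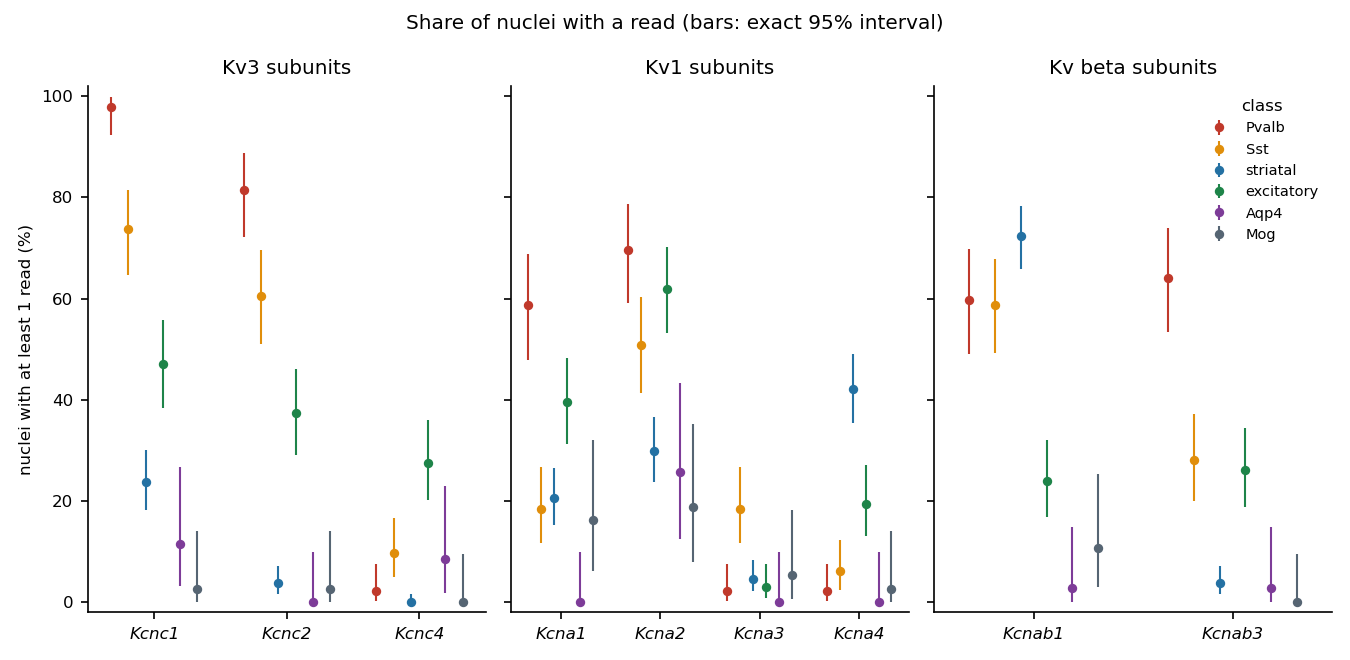
Share of nuclei with at least 1 read of each listed gene (vertical axis, %), by class, for Kv3, Kv1 and beta subunits; points are the shares and bars the exact 95% intervals. Kcnc1 runs between 97.8% of Pvalb and 2.703% of Mog nuclei, and Kcna4 is most widespread in the striatal class at 42.1%.

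Kcna3 was low in every class and highest on average in Sst libraries. It had 0 to 19.6 CPM in Pvalb libraries (8 of 9 at 0), 0 to 126 CPM in Sst libraries (median 31.7, 2 of 12 at 0), 0 to 28.5 CPM in striatal libraries (7 of 12 at 0) and 0 to 33.6 CPM in excitatory libraries (11 of 13 at 0). It was higher in Sst than in excitatory nuclei (log2 fold change 6.80 ± 1.89, adjusted p = 0.0313), in 8 of the 9 constructs with both. The call was lost without 3xsmOPT-SYFP2-H2B-BC, 3xU7snRNAOPT-SYFP2-H2B-BC, BORG-SYFP2-H2B-BC, dTomato-H2B, SYFP2-H2B-3xBORG-BC, U7snRNAOPT-3'box-SYFP2-H2B-BC or U7snRNAOPT-SYFP2-H2B-BC (adjusted p 0.0556 to 0.0969), and without the construct block (3.35, adjusted p = 0.190), and it held in 18 of 28 settings (adjusted p 0.00668 to 0.913). A read was present in 18.4% of Sst nuclei (11.8 to 26.8%), against 2.99% of excitatory (0.819 to 7.47%) and 5.41% of Mog nuclei (0.661 to 18.2%). Pvalb over Sst (-7.36 ± 2.21, adjusted p = 0.149) passed with DESeq2 (adjusted p = 0.0454) and with at least 3 nuclei a library (0.00501), in 2 of 28 settings. The antisense gene Gm27008 overlaps Kcna3, and the strand used in counting is not given in the sources used here, so reads of the pair cannot be told apart.

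Kcna4 was highest in striatal projection nuclei and, of the 4 neuronal classes, lowest on average in Pvalb nuclei. Its level was 0 to 21.03 CPM in Pvalb libraries (8 of 9 at 0), 0 to 70.3 CPM in Sst libraries (8 of 12 at 0), 33.6 to 213 CPM in striatal libraries (median 136) and 0 to 69.98 CPM in excitatory libraries (median 20.9). Every striatal library lay above every Pvalb library, as for 0.951% of all genes, and the striatal range overlapped with those of Sst and excitatory libraries. Kcna4 was lower in Pvalb than in striatal nuclei (log2 fold change -10.31 ± 1.90, adjusted p = 0.000208) and lower in Sst than in striatal nuclei (-7.12 ± 1.67, adjusted p = 0.00389), in 6 of 6 and in 10 of 10 constructs. The Sst difference did not pass without the construct block (-2.99, adjusted p = 0.0699), and it passed in 26 of 28 settings (adjusted p 1.62e-09 to 0.450).

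Kcna4 was also lower in Pvalb than in excitatory nuclei (-7.78 ± 1.76, adjusted p = 0.00444), at means of 2.34 ± 7.01 and 21.7 ± 21.2 CPM. That call was lost without the construct block (-3.42, adjusted p = 0.0923) and when nuclei were grouped by treatment label (-5.58, adjusted p = 0.229), and it held in 24 of 28 settings (adjusted p 3.90e-09 to 0.795). In striatal over excitatory nuclei the means were 128 ± 48.3 and 21.7 ± 21.2 CPM and the striatal library was the higher one in 9 of 9 constructs, yet the fitted 2.53 ± 1.37 had an adjusted p of 0.426 and passed in 0 of 28 settings. A read was present in 42.1% of striatal nuclei (35.4 to 48.98%), 19.4% of excitatory nuclei (13.1 to 27.1%) and 2.703% of Mog nuclei (0.0684 to 14.2%); thinned to 30000 reads, the first 2 were 38.3% and 10.4%.

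Kcnab1, the first of the beta subunits, was lower in excitatory nuclei than in each of the other 3 neuronal classes. It had 47.6 to 367 CPM in Pvalb libraries (median 128), 3.24 to 552 CPM in Sst libraries (median 256), 135 to 480 CPM in striatal libraries (median 253) and 0 to 166 CPM in excitatory libraries (median 27.4). The first 3 ranges overlapped broadly, and each of them overlapped with the excitatory range. Kcnab1 was higher than in excitatory nuclei in Pvalb (log2 fold change 3.10 ± 0.87, adjusted p = 0.0314), in Sst (3.70 ± 0.82, adjusted p = 0.00336) and in striatal nuclei (4.04 ± 0.85, adjusted p = 0.00188). These directions held in 7 of 7, 9 of 9 and 9 of 9 constructs with both classes.

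The Pvalb call of Kcnab1 was lost without 3xsmOPT-SYFP2-H2B-BC, BORG-SYFP2-H2B-BC, dTomato-H2B, SYFP2-H2B-3xsmOPT-BC, SYFP2-P2A-3XFLAG-H2B-SIRLOIN or U7snRNAOPT-3'box-SYFP2-H2B-BC (adjusted p 0.0541 to 0.108), without the construct block (1.86, adjusted p = 0.0668) and by treatment label (2.64, adjusted p = 0.0824), and it held in 17 of 28 settings (adjusted p 0.000195 to 0.717). A read was present in 59.8% of Pvalb (49.04 to 69.9%), 58.8% of Sst (49.2 to 67.9%), 72.4% of striatal (65.9 to 78.3%), 23.9% of excitatory (16.9 to 32.01%) and 10.8% of Mog nuclei (3.03 to 25.4%). Kcnab1 overlaps AC113458.1 on its own strand and A330015K06Rik and A730090N16Rik on the other, whose reads cannot be told apart from its own here.

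Kcnab3, the other beta subunit, had its highest mean in Pvalb libraries and, of the 4 neuronal classes, its lowest in striatal libraries, as Kcnc1 did. Its level was 67.98 to 328 CPM in Pvalb libraries (median 211), 0 to 170 CPM in Sst libraries (median 44.7), 0 to 48.2 CPM in striatal libraries (7 of 12 at 0) and 6.57 to 92.04 CPM in excitatory libraries (median 34.8). Kcnab3 was higher in Pvalb than in striatal nuclei (log2 fold change 6.62 ± 1.38, adjusted p = 0.00111), with no overlap of the ranges. It was higher in Sst than in striatal nuclei as well (4.11 ± 1.26, adjusted p = 0.0362), in 8 of 10 constructs. That second call was lost by treatment label (3.25, adjusted p = 0.131) and without any 1 of 10 constructs (adjusted p 0.0518 to 0.0951): 3xsmOPT-SYFP2-H2B-BC, 3xU7snRNAOPT-SYFP2-H2B-BC, BORG-SYFP2-H2B-BC, SYFP2-10aa-H2Bmod-BC, SYFP2-H2B-3xsmOPT-BC, SYFP2-H2B-BORG-BC, SYFP2-H2B-U7snRNAOPT-3'box-BC, SYFP2-H2B-U7snRNAOPT-BC, SYFP2-P2A-3XFLAG-H2B or U7snRNAOPT-3'box-SYFP2-H2B-BC. It held in 15 of 28 settings (adjusted p 5.55e-05 to 0.839).

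Pvalb exceeded Sst in Kcnab3 in 8 of 8 constructs, with a fitted 2.51 ± 1.18 and an adjusted p of 0.561, and striatal over excitatory gave -3.95 ± 1.304 with an adjusted p of 0.0858, which DESeq2 (adjusted p = 0.000207), the fit without a low-count filter (0.0428) and leaving out U7snRNAOPT-SYFP2-H2B-BC (0.0181) brought below the threshold in 3 of 28 settings. A read was present in 64.1% of Pvalb (53.5 to 73.9%), 28.1% of Sst (20.1 to 37.3%), 3.74% of striatal (1.63 to 7.23%) and 26.1% of excitatory nuclei (18.9 to 34.4%), against 0 of 37 Mog nuclei, which allows a share of up to 8.11% by 3 counts and 9.49% by the exact interval. Kcnab3 is overlapped by the antisense gene Kcnab3os. Kcnab1 without Kcnab3 was read in 14 of 92 Pvalb, 47 of 114 Sst, 148 of 214 striatal and 21 of 134 excitatory nuclei, and Kcnab3 without Kcnab1 in 18, 12, 1 and 24 nuclei of the same classes.

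Counted over the 9 genes, 0 passed in Pvalb over Sst (4 at an unadjusted p under 0.05; 2 with DESeq2), where 0.452% of all genes passed. In Pvalb over striatal nuclei 4 of 9 passed, 3 higher and 1 lower, against 5.44% of all genes (2.3% higher, 3.15% lower). In Pvalb over excitatory nuclei 3 of 9 passed, 2 higher and 1 lower, against 3.08% (0.78% higher, 2.3% lower). In Sst over striatal nuclei 5 of 9 passed, 4 higher and 1 lower, against 6.32% (2.81% higher, 3.51% lower). In Sst over excitatory nuclei 3 of 9 passed, all higher, against 3.15% (0.951% higher, 2.2% lower). In striatal over excitatory nuclei 3 of 9 passed, 1 higher and 2 lower, against 3.22% (1.03% higher, 2.19% lower). The median log2 fold change of the 9 genes was 0.24, 1.501, 1.77, 2.67, 0.16 and -0.46 in these contrasts, beside medians over all genes of -0.02, -0.14, -0.37, -0.13, -0.38 and -0.21. Contrasts that share a class are not independent of each other.

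**Figure D3:**
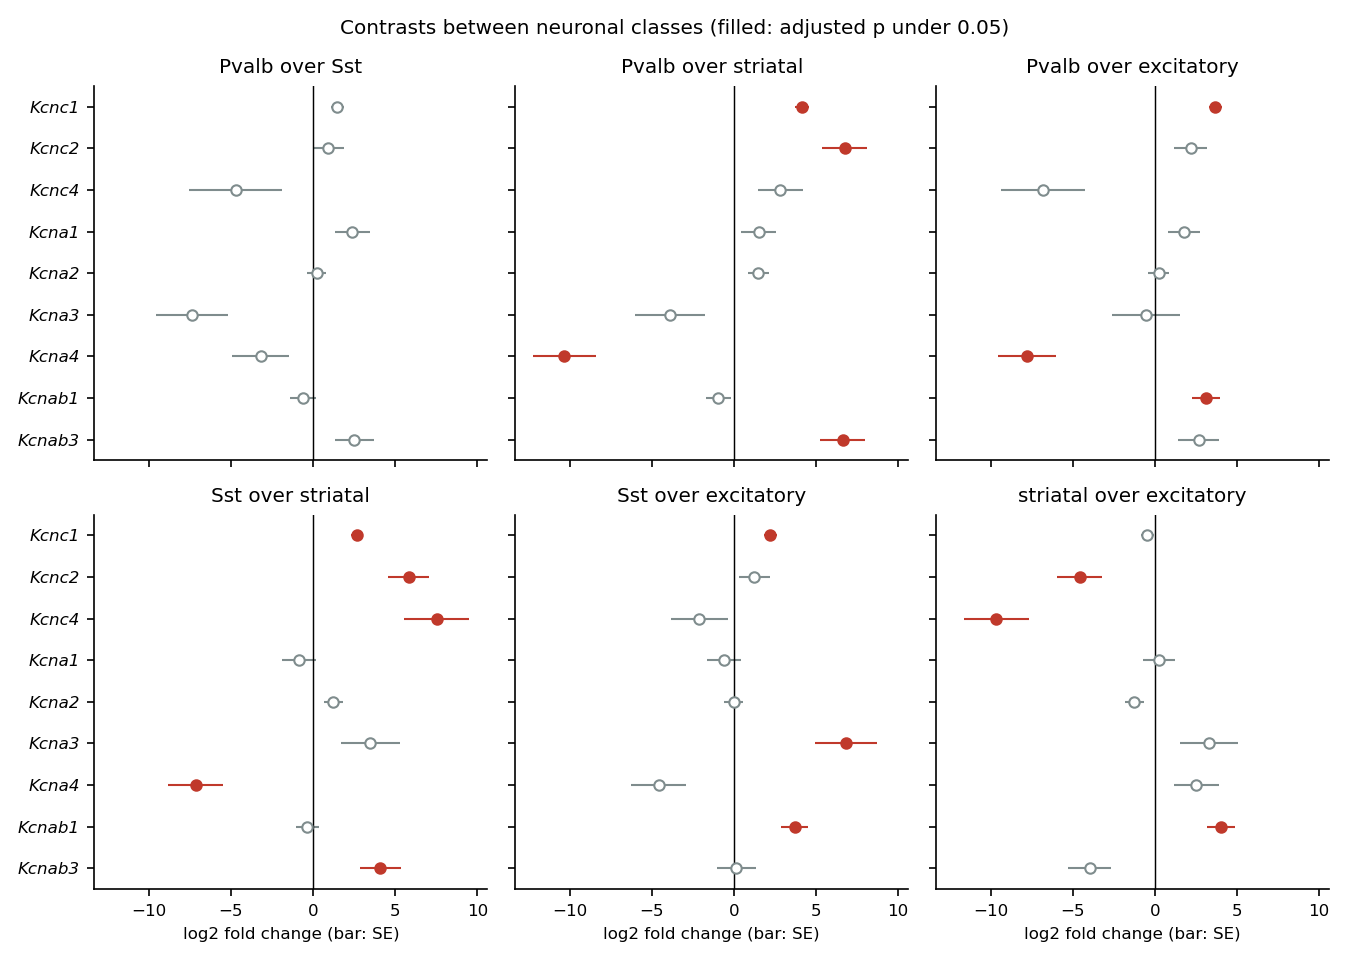
Fitted log2 fold change of each listed gene in the 6 contrasts between neuronal classes (horizontal axis, first class over second; bars are SE), with filled points where the adjusted p was under 0.05. Kcnc1 is filled in 4 panels, from 2.21 to 4.15, and Kcna4 is filled on the negative side in 3 panels.

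Levels of different genes are given per length of merged exons. Whether reads in introns were counted is not given in the sources used here, and the order of genes assumes that they were not. In all Pvalb nuclei summed, Kcnc1 had 120 CPM per kilobase, Kcnab3 75.4, Kcnc2 49.9, Kcna1 36.6, Kcna2 23.9 and Kcnab1 20.8, while Kcna3, Kcna4 and Kcnc4 had 2.05, 1.14 and 0.646. In Sst nuclei Kcnc1 had 37.6 and Kcnc2 37.3 CPM per kilobase, followed by Kcnab1 at 29.8. In striatal nuclei Kcnab1 (32.4) and Kcna4 (29.3) came before Kcna1 (10.1), and in excitatory nuclei Kcna2 (16.3) came before Kcnab3 (12.9), Kcnc2 (12.8) and Kcna1 (12.7). A median of 5 of the 9 genes had a read in a Pvalb nucleus, 3 in an Sst, 2 in a striatal and 3 in an excitatory nucleus, and 0 in an Aqp4 or Mog nucleus.

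In the Mog class, Kcnc1, Kcnc2, Kcnc4, Kcna3, Kcna4 and Kcnab3 were at 0 in all 3 libraries. Kcna1 had 157 CPM in 1 Mog library and 0 in the other 2, Kcna2 had 303, 18.4 and 14.4 CPM, and Kcnab1 had 34.7, 24.6 and 0 CPM. These libraries hold only part of the class. Over all 37 Mog nuclei, 1 nucleus held 160 reads of Kcnc1, 1 held 122 of Kcna4 and 2 held 473 of Kcna3. Kcnc1 was thus at 12.96 CPM in the summed Mog nuclei, below the 1132 CPM in Pvalb, 355 in Sst, 58.5 in striatal and 84.7 CPM in excitatory nuclei. The share of all genes that passed over Mog nuclei was 14.9% for Pvalb, 15.6% for Sst, 16.3% for striatal and 17.8% for excitatory nuclei, and 3, 4, 3 and 4 of the 9 genes passed. Median log2 fold changes over all genes were 1.87, 1.90, 2.17 and 2.60 in these contrasts. Kcna1 and Kcna2 passed in none of them. In the 2 Aqp4 libraries, Kcna2 had 198 and 67.6 CPM, Kcnc4 166 and 0 CPM and Kcnc1 23.7 and 0 CPM, and the other 6 genes were at 0.

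Glial RNA in the neuronal libraries was measured through marker sums. The 5 oligodendrocyte markers summed to 4.21 to 331 CPM in Pvalb, 64.3 to 1331 in Sst, 58.996 to 1116 in striatal and 6.396 to 1631 CPM in excitatory libraries, against 39734 to 51847 CPM in Mog libraries. The 6 astrocyte markers summed to at most 341, 331, 3104 and 899 CPM in the Pvalb, Sst, striatal and excitatory libraries, against 15301 to 17477 in Aqp4 libraries. The part of this RNA in the results was not tested.

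The library pools did not hold the classes evenly: the striatal class had 0 nuclei in pool S40317, 141 in S40325 and 73 in S40327. Kcnc1 was at 935, 1416 and 863 CPM in the Pvalb nuclei of pools S40317, S40325 and S40327, at 238, 326 and 400 CPM in their Sst nuclei and at 63.7, 68.6 and 157 CPM in their excitatory nuclei. In striatal nuclei it was at 63.6 CPM in S40325 and 47.1 CPM in S40327. Kcna4 was at 160 and 101 CPM in the striatal nuclei of these 2 pools, against 25.3 and 23.6 CPM in their excitatory nuclei. Kcna3 in striatal nuclei was at 22.8 CPM in S40325 and 0.114 CPM in S40327, so its striatal level rests on 1 pool. In libraries of at least 3 nuclei from pool S40325 alone, 2 listed genes passed in Pvalb over striatal, 1 in Pvalb over excitatory and 2 in Sst over striatal nuclei. Of the 12173 genes tested there, those that set the classes included, 91, 35 and 157 passed in these contrasts. From pool S40327 alone 2 passed, both in Sst over striatal nuclei, where 284 of 11322 genes passed, counted the same way. The fits of single pools hold fewer libraries.

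Within the striatal class, nuclei with at least 20 CPM of Drd2 but not of Drd1 (58 nuclei, 3 libraries) were compared with nuclei with Drd1 but not Drd2 by the same minimum (104 nuclei, 9 libraries), the markers of the indirect and direct pathway. Kcnc2 was at 0 in all 3 Drd2 libraries, against 0 to 287 CPM in Drd1 libraries with 4 of 9 at 0. The Drd1 median was 0.146 CPM too, and the library next to the highest was at 66.3 CPM. Kcna4 had 112, 196 and 243 CPM in Drd2 libraries, against 82.7 to 213 CPM in Drd1 libraries, and Kcnab1 had 193, 385 and 430 CPM against 194 to 506 CPM. These ranges overlapped. Of 10785 genes 0.0278% passed, and of the 9 listed genes 8 were tested and 0 passed, with 0 at an unadjusted p under 0.05. Kcna3 had 12.8, 17.7 and 38.2 CPM in the 3 Drd2 libraries, against 0 to 41.3 CPM in Drd1 libraries with 7 of 9 at 0, so these ranges overlapped as well. Drd2 was the higher one in 2 of 3 constructs with both.

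Within Sst nuclei, those with Chodl, a marker of long-range projecting Sst neurons, numbered 25 and gave 2 libraries, against 8 libraries of the other 89 nuclei. Kcna1 had a read in 0 of 25 Chodl nuclei, which allows a share of up to 12% by 3 counts and 13.7% by the exact interval, against 23.6% of the others (15.2 to 33.8%). Kcnab1 was at 306 and 773 CPM in Chodl libraries, against 3.24 to 407 CPM in the others, and Kcnc1 was at 178 and 202 CPM, against 233 to 692 CPM. Kcnc2 went the other way than Kcnc1, at 309 and 622 CPM in Chodl libraries, against 52.1 to 397 CPM. Kcna2 was at 0 and 78.5 CPM in Chodl libraries, against 120 to 392.2 CPM. The ranges of Kcnc1 and Kcna2 did not overlap, while those of the other listed genes did. Against only 2 Chodl libraries ranges part easily, and the share of all genes with separate ranges was not counted for this split. With 2 libraries no test was made, and with libraries of at least 3 nuclei 0 of the 9 genes passed (Kcna2 -4.55 ± 1.79, unadjusted p = 0.0112, adjusted p = 1). In that fit 22 of 10399 genes passed.

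Within excitatory nuclei, those with Cux2, a gene of upper layers, and those with Foxp2, a gene of layer 6, gave 2 libraries each from different constructs, so the split cannot be told apart from the constructs. Kcnc2 was at 97.9 and 105 CPM in Cux2 libraries, against 7.09 and 11.1 CPM in Foxp2 libraries. Kcnc4 was at 15.6 and 23.8 CPM, against 58.6 and 99.2 CPM, and Kcnab1 was at 0 in both Cux2 libraries, against 25.2 and 64.8 CPM. Kcnc1 was at 95.4 and 140 CPM, against 23.3 and 56.4 CPM. The ranges of Kcna1, Kcna2, Kcna4 and Kcnab3 overlapped, and Kcna3 was at 0 throughout. With 2 libraries on each side ranges part easily, and the share of all genes with separate ranges was not counted here. Over all nuclei of the split, a Kcnc2 read was present in 62.9% of Cux2 nuclei (44.9 to 78.5%) and 16% of Foxp2 nuclei (4.54 to 36.1%).

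**Figure D4:**
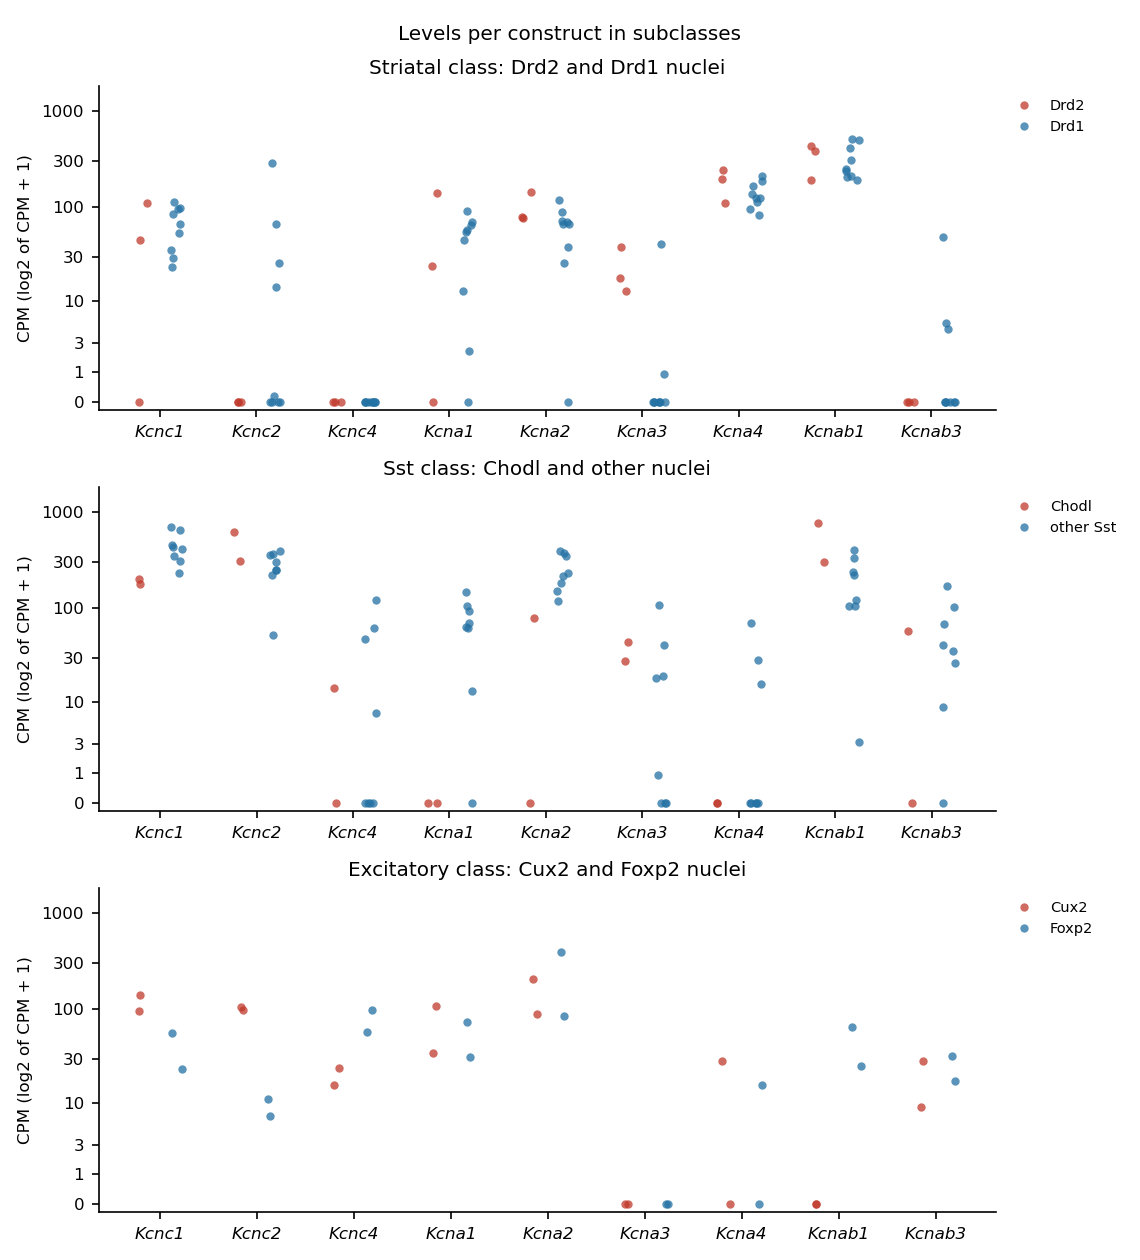
Level of each listed gene in CPM (vertical axis, log2 of CPM + 1, labelled in CPM) in libraries of subclasses (points): Drd2 and Drd1 nuclei of the striatal class, Chodl and other nuclei of the Sst class, and Cux2 and Foxp2 nuclei of the excitatory class. Kcnc2 is at 0 in the 3 Drd2 libraries and in 4 of 9 Drd1 libraries (Drd1 median 0.146 CPM). Its 2 Cux2 libraries (97.9 and 105 CPM) lie above its 2 Foxp2 libraries (7.09 and 11.1 CPM), which come from different constructs.

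The titles also pair constructs that carry an RNA element after or before the SYFP2-H2B fusion, with 6 elements in 12 constructs. Over all kept nuclei, Kcnc1 was at 64.2 to 333 CPM in constructs with the element after and 151 to 343 CPM in those with it before. Of 13614 genes 0% passed with edgeR, and 0 of the 9 listed genes did so or had an unadjusted p under 0.05. These levels also carry the mix of classes of each construct. The position is taken from titles, each of which covers 4 or 5 treatment labels. Both positions may therefore hold nuclei of the same vectors, so the comparison cannot decide on an effect of position.

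Among other genes of the Kv1 and beta families, Kcna5, Kcna6 and Kcnab2 were tested and Kcna7 and Kcna10 were too low. Of the 3 tested, Kcna5 alone passed, in Pvalb over striatal nuclei, where it was lower (adjusted p = 0.0325). It was at 0 in all 9 Pvalb libraries, against 6.32 ± 8.85 CPM in striatal libraries (SD). That level was near the floor too, with 7 of 12 striatal libraries at 0. Of 16 genes for partners of Kv1 channels, 15 were tested, and those named here were chosen after their values were seen, as was Kcna5. In Pvalb over striatal nuclei 1 was higher and 1 lower. The lower one was Ank3, the scaffold of the initial segment (-0.95 ± 0.29, adjusted p = 0.0394). In Pvalb over excitatory nuclei 1 was higher and 1 lower: Cntnap2, a cell adhesion protein of the Kv1 complex, was higher (1.67 ± 0.42, adjusted p = 0.0123) and Dlg1, a scaffold that binds Kv1 channels, was lower (-2.998 ± 0.63, adjusted p = 0.00178). In Sst over striatal nuclei 1 was higher and 2 lower, the lower ones being Ank3 (-1.04 ± 0.26, adjusted p = 0.00696) and Adam23 (-2.20 ± 0.57, adjusted p = 0.00932). In Sst over excitatory nuclei 0 were higher and Dlg1 was lower (-2.75 ± 0.56, adjusted p = 0.00122). In the other 2 neuronal contrasts, Pvalb over Sst and striatal over excitatory, 0 passed, against 0.452% and 3.22% of all genes. Of all genes, 2.3% were higher and 3.15% lower in Pvalb over striatal, and 0.78% and 2.3% in Pvalb over excitatory nuclei. The shares were 2.81% and 3.51% in Sst over striatal and 0.951% and 2.2% in Sst over excitatory nuclei. With 15 genes tested, counts of 1 or 2 are too few to set against these shares.

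Of 28 other voltage-gated potassium channel subunits, 25 were tested. In Pvalb over striatal nuclei 3 were higher and 4 lower, in Pvalb over excitatory 1 and 5, in Sst over striatal 2 and 5, in Sst over excitatory 1 and 6, and in striatal over excitatory nuclei 0 and 2; in Pvalb over Sst 0 passed. Beside these counts, 2.3% of all genes were higher and 3.15% lower in Pvalb over striatal, 0.78% and 2.3% in Pvalb over excitatory, 2.81% and 3.51% in Sst over striatal, 0.951% and 2.2% in Sst over excitatory and 1.03% and 2.19% in striatal over excitatory nuclei. Kcns3, a silent subunit that joins Kv2 channels, had 122 ± 76.6 CPM in Pvalb and 95.05 ± 69.6 in Sst libraries, against 0 in all 12 striatal libraries and 3.03 ± 7.68 CPM in excitatory libraries, and was higher in both interneuron classes than in either other class. Kcnh4, of the ether-a-go-go family, was at 0 in all 9 Pvalb libraries and at 1.05 ± 2.45 CPM in Sst libraries, against 122 ± 108 CPM in striatal and 40.8 ± 32.5 CPM in excitatory libraries, and was lower in both interneuron classes than in either other class. The next by p in Pvalb over Sst were Kcnh7 (2.22, adjusted p = 0.112) and Kcns1 (6.79, adjusted p = 0.117), and in striatal over excitatory nuclei Kcnh7 (-3.91, adjusted p = 5.19e-05) was lower. The 5 Kcne genes listed as possible partners of Kv3 were all too low to test.

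Over the 49 libraries of 5 classes, the genes whose log2 CPM ran most like each listed gene were found by Pearson's r; libraries share constructs and class, so r is a description with no test. For Kcnc1 they included Cntnap2 (0.85) and A330076H08Rik (0.83), and for Kcnc2 Camk2d (0.83), Elavl2 (0.81) and Ccdc136 (0.80). For Kcnab3 they were Mkx (0.79), Satb1 (0.79) and Mfsd4a (0.77), and for Kcna4 Meis2 (0.77), Plk5 (0.77) and Kcnh4 (0.77). Kcnab1 ran with Rbms3 (0.75), Robo1 (0.74) and Cdh13 (0.72), Kcna3 with Baiap3 (0.76), ENSMUSG00000057286 (0.67) and Nos1 (0.67), Kcna2 with Bag6 (0.74), 1700020I14Rik (0.71) and Camta1 (0.70), Kcna1 with Prkcsh (0.66), Ccdc127 (0.64) and Dop1a (0.64), and Kcnc4 with Tox (0.65) and Pde1a (0.61). Among the listed genes themselves, r was highest for Kcnc1 with Kcnc2 (0.70) and with Kcnab3 (0.69), and lowest for Kcnc2 with Kcna4 (-0.36).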

How the data were processed

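The submitters' processing notes name STAR 2.7.2a and mm10; how reads were counted is not given in the sources used here. The deposited table holds whole-number read counts per gene as the authors made them, not normalized. Of its columns 904 belong to the series and 1597 were not used. Of 32285 gene IDs, 32235 matched a GENCODE M21 symbol. No 2 nuclei held identical counts.

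Counts were summed per class and construct (at least 5 nuclei) and tested with edgeR 4.0.16 in R 4.3.3: TMM scaling, filterByExpr, quasi-likelihood fit of all classes with at least 3 libraries, construct as a block, Benjamini-Hochberg threshold 0.05. A ratio to a group with no read uses 3 counts over that group, which is a bound only if reads are independent. Levels and shares came from Python 3.11.15 (pandas 2.3.3, scipy 1.17.1). Thinning to 30000 reads was added after depths were seen. The fit was tested on simulated data. Alternatives were RLE scaling, DESeq2 1.42.0, no filter, at least 3 nuclei, grouping by treatment label, no block, single pools, at least 2000 genes, doubled marker minimums, neuronal classes alone and leaving out each construct. Leaving out 3xU7snRNAOPT-SYFP2-H2B-BC, SYFP2-H2B-3xU7snRNAOPT-BC or SYFP2-H2B-U7snRNAOPT-3'box-BC also took the Mog class out of the fit, since under 3 of its libraries were left.

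The 9 genes and all lists were chosen with earlier results of these data known. Named besides them are the list genes with the 2 smallest p in each neuronal contrast and the 3 most alike genes of each listed gene, with exceptions marked as such. Some genes that this rule names are not reported here.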

Additional observations from a re-analysis of the deposited data

Results flagged for a closer look

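Among 44 groups of 4 to 10 libraries, 9 held a highest library that stood far from the rest. Chance gives about 1 in 20 groups, a rate that does not apply where the other libraries are at or near 0, since any library with reads is then singled out. In Pvalb libraries, Kcnc4 reached 39.2 CPM in BORG-SYFP2-H2B-BC, with 0.208 CPM in the next library. Kcna4 reached 21.03 CPM in the same construct and Kcna3 19.6 CPM in SYFP2-P2A-3XFLAG-H2B-SIRLOIN, with the other Pvalb libraries at 0 for both genes. In Drd1 libraries of the striatal class, Kcnc2 reached 287 CPM in SYFP2-H2B-U7snRNAOPT-BC (next 66.3), Kcna3 41.3 CPM in SYFP2-P2A-3XFLAG-H2B (next 0.910) and Kcnab3 48.3 CPM in SYFP2-P2A-3XFLAG-H2B-SIRLOIN (next 5.46). In Sst libraries without Chodl, Kcna3 reached 109 CPM in U7snRNAOPT-3'box-SYFP2-H2B-BC (next 40.9) and Kcna4 70.3 CPM in BORG-SYFP2-H2B-BC (next 28.5). Among constructs with the element after the fusion, Kcna3 reached 34.6 CPM with U7snRNAOPT (next 10.4).

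Nuclei that entered no comparison between classes held reads of all 9 genes, and their shares are given for that reason. Among the 117 nuclei that met no class rule, a read was present in 51.3% for Kcnc1, 25.6% for Kcnc2, 6.84% for Kcnc4, 17.1% for Kcna1, 40.2% for Kcna2, 5.13% for Kcna3, 12.8% for Kcna4, 20.5% for Kcnab1 and 16.2% for Kcnab3. Among the 92 nuclei that met more than 1 rule, the shares were 47.8% for Kcnc1, 39.1% for Kcnc2, 16.3% for Kcnc4, 21.7% for Kcna1, 48.9% for Kcna2, 9.78% for Kcna3, 18.5% for Kcna4, 46.7% for Kcnab1 and 14.1% for Kcnab3.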

How the results depend on the processing

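No paired analysis was possible because the numbers in the titles count nuclei within a construct and are not shared replicates. This concerns those numbers alone, since the main tests pair classes by construct. In the order Pvalb over Sst, Pvalb over striatal, Pvalb over excitatory, Sst over striatal, Sst over excitatory and striatal over excitatory, 69, 830, 470, 963, 481 and 491 genes passed. DESeq2 called 1158, 2393, 1874, 2743, 1905 and 1895, and the fit without the construct block 896, 2142, 1426, 2155, 1570 and 1450. Pool S40325 alone gave 16, 89, 32, 155, 39 and 9 genes and pool S40327 alone 7, 88, 29, 281, 44 and 36. With at least 3 nuclei 186 genes passed in Pvalb over Sst, 998 in Pvalb over excitatory, 771 in Sst over excitatory and 1 in Drd2 over Drd1 (3 otherwise, 1 to 3 when constructs were left out). Without a low-count filter 171 passed in Pvalb over Sst, and by treatment label 327 in striatal over excitatory. Of the 9 genes, Pvalb over Sst called 0, against 2 with DESeq2 and 1 each with at least 3 nuclei, no block, at least 2000 genes, doubled minimums and neuronal classes alone, and 0 to 1 without single constructs. Pvalb over excitatory called 3, against 5 with DESeq2, 1 by treatment label, 1 without the block, 1 in pool S40325 and 0 in pool S40327. Pools S40325 and S40327 called 2 and 0 in Pvalb over striatal (4 in all pools), 2 and 2 in Sst over striatal (5), 0 and 0 in Sst over excitatory (3) and 0 and 0 in striatal over excitatory (3). The cause of these changes was not tested, though single pools hold fewer libraries. Log2 fold changes that turned sign were all uncalled in the main contrasts. In Pvalb over Sst they were Kcnc2 by treatment label (-0.077) and Kcnab1 in pool S40325 (0.054) and with doubled minimums (0.11). In Pvalb over striatal they were Kcna2 (-0.099) and Kcnab1 (0.076) in pool S40325 and Kcna3 in pool S40327 (0.56). In Pvalb over excitatory they were Kcna2 in pool S40325 (-0.080) and Kcna3 with DESeq2 (0.20), by treatment label (0.12), in pool S40325 (0.99) and in pool S40327 (0.62). In Sst over striatal they were Kcna2 (-0.30) and Kcnab1 (0.022) in pool S40325. In Sst over excitatory they were Kcnc4 without the block (0.021) and in pool S40327 (4.12), Kcna1 in pool S40327 (0.38), and Kcna2 with DESeq2 (0.022), RLE scaling (0.022), by treatment label (0.089) and in pool S40327 (0.60). In striatal over excitatory they were Kcnc1 (0.17) and Kcna2 (0.019) in pool S40325 and Kcna1 without the block (-0.16). In Drd2 over Drd1 they were Kcna1 with at least 3 nuclei (0.95) and by treatment label (0.75) and Kcna4 with at least 3 nuclei (-0.25). For elements after over before, in Sst and Pvalb nuclei alone, they were Kcna1 (-1.05), Kcna2 (0.21) and Kcnab1 (-0.28). Without single constructs or elements, values ran between -0.13 and 0.37 for Kcna2 and between -2.21 and 1.45 for Kcna3 in Pvalb over excitatory, between -0.44 and 0.15 for Kcna2 and between -0.32 and 0.32 for Kcnab3 in Sst over excitatory, and between -0.13 and 0.53 for Kcna1 in striatal over excitatory. In Drd2 over Drd1 they ran between -4.18 and 0.39 for Kcnc1, -4.59 and 1.24 for Kcna1, -0.13 and 0.15 for Kcna2, -0.36 and 0.49 for Kcna4 and -0.094 and 0.64 for Kcnab1. For elements after over before they ran between -0.43 and 0.0043 for Kcnc2, -0.22 and 0.59 for Kcnc4, -0.078 and 0.43 for Kcna1, -0.36 and 0.26 for Kcna2 and -0.11 and 0.32 for Kcnab3. Of the remaining values of the 9 genes under alternatives other than leaving out constructs, 541 kept direction and side of the threshold, 40 lost the call and 21 gained it. The Cux2 and Foxp2 libraries share no construct and were not tested. Depth limits genes with few reads, such as Kcnc4, Kcna3 and Kcna4 in Pvalb nuclei.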
